A study of Mus musculus with 8 samples.

Results

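The genes described here encode the nuclear subunits of the mitochondrial respiratory chain and of ATP synthase, together with the assembly factors that share their gene names. They were chosen by symbol alone, as every gene in the results table whose name begins with Nduf, Sdha to Sdhd, Uqcr, Cox followed by a digit, or Atp5, plus Cyc1 and Cycs, which gave 85 of 10601 genes. The rule itself uses no measured value. All 85 passed the filter on low values used here, 10 RPM in at least 1 mouse. That outcome was nearly settled in advance by the table. In every mouse, 80 of them stood at or above 10 RPM. The rule also matched Cox4nb, Atp5s and Atp5sl, which are not subunits of the chain or of the synthase, and they were kept apart below. Subunits encoded by mitochondrial DNA lie outside the rule and were not analysed here.

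Poly(A)+ RNA of the right cortex was sequenced from 8 C57BL/6 mice, 4 bigenic and 4 nontransgenic. Bigenic mice carried Camk2a-tTa, in which the Camk2α promoter drives the tetracycline transactivator mainly in excitatory neurons of the forebrain. They also carried a tetracycline-responsive transgene for ΔNLS-hTDP-43, a human TDP-43 with a mutated nuclear localization signal. The protein of this transgene lies mainly, but not only, in the cytoplasm. Nontransgenic mice, whose parents were each heterozygous for the transgenes, carried neither and were given the same diet, so an effect of the transactivator and an effect of ΔNLS-hTDP-43 cannot be told apart. In both groups doxycycline was fed until 28 days of age, the cortex was taken 10 days after its removal, and 3 of the 4 mice were male. The values are normalized counts, that is read counts per gene already scaled per mouse in the deposited table, with column totals of 20.1 M to 22 M. An estimated 10.6 M to 31.9 M reads per mouse lay on genes, and 3 reads were worth 1.94 to 6.20 normalized counts. Mice are numbered 1 to 4 within each group in the order of the columns, which is not the replicate number of the labels.

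The libraries followed their labels in 1 transcript with no gene symbol, uc999vvf.1, which the table does not name as the transgene and which stood at 29375 to 41550 normalized counts in the bigenic and at 5 to 80 in the nontransgenic mice. The mouse gene Tardbp stood at 4908 to 5502 and at 6116 to 7116. One bigenic library, that of mouse 2, stood apart from the rest: it was the shallowest of the 8, its first principal component score was -46 against -12.8 to -15.1 in the other bigenic mice, and its second was -22.3 against 15.0 to 15.9. For called genes and genes described one by one, the value without it is also given where that changes the call or moves the value by over 1.5 times. Of 13 measured neuronal markers, 2 were called higher and 6 lower in bigenic mice by limma (adjusted p-value below 0.05). Over all genes tested, 20.5% were called higher and 15.4% lower. The summed level of the neuronal markers was 178885 to 240333 normalized counts in the bigenic and 218314 to 236835 in the nontransgenic mice, the highest bigenic sum being that of mouse 2. Astrocyte markers were called lower in 4 of 9 (124322 to 144488 against 152280 to 163643) and microglial markers in 5 of 10 (6116 to 8135 against 8231 to 9539). Of 10 oligodendrocyte markers 1 was called higher, and of 7 endothelial markers 1 was called lower. Only 5 of the 14 listed choroid plexus markers were among the genes tested. All 5 were called higher, with a summed level of 8559 to 19772 in the bigenic and 410 to 1281 in the nontransgenic mice. The filter on low values keeps a gene that is high in the bigenic mice alone, so this count is no evidence of its own. None of the measured markers was at 0 in any mouse, and their part in the results below was not tested. In a bulk sample, fewer cells of a type and less RNA per cell cannot be told apart.

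Oxidative phosphorylation takes place in the inner mitochondrial membrane. Complexes I and II pass electrons from NADH and succinate to ubiquinone, complex III passes them to cytochrome c, complex IV passes them to oxygen, and ATP synthase uses the proton gradient built by complexes I, III and IV to make ATP. Neurons depend heavily on this route, and most of its subunits are encoded in the nucleus and have to be made in matching amounts with the few encoded in the mitochondrion.

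The 85 genes did not move as a block. In the limma fit over all 10588 genes tested, 19 of the 85 (22.4%) had an adjusted p-value below 0.05, against 35.9% of all genes tested, and the difference between these shares was not tested. Of the 19, 7 were higher in bigenic mice and 12 were lower, where 20.5% of all genes were called higher and 15.4% were called lower. Fold changes lay on both sides of 0 in every complex but complex II, with 39 genes above and 46 below. The median log2(fold change), bigenic over nontransgenic on the log2(normalized count + 1) scale, was -0.04 over the 85 genes and 0.03 over all genes, and the whole range ran from -0.78 for Atp5g3 to 0.54 for Atp5d. In size, the median change was 0.22 on the log2 scale, against 0.25 over all genes, and the median standard error was 0.13 against 0.11. The 4 bigenic values lay entirely above the 4 nontransgenic values in 10 genes and entirely below them in 11 genes, where 22.3% and 16.7% of all genes did so.

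**Figure D1:**
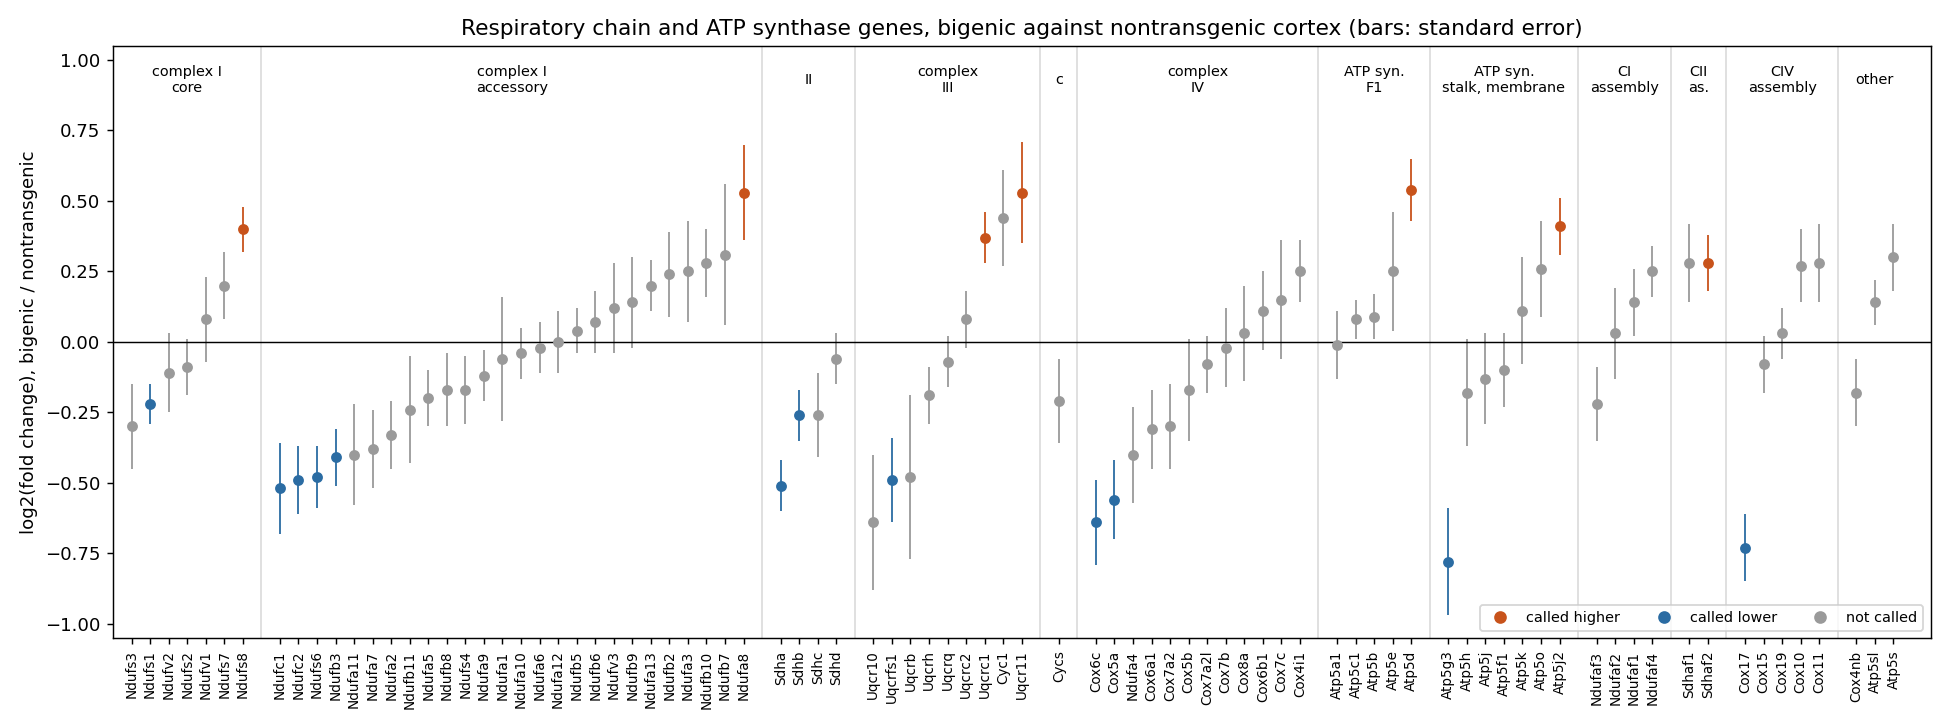
Log2(fold change) of each of the 85 genes, bigenic over nontransgenic, with its standard error as a bar (4 mice a group), sorted within each complex. Orange points were called higher, blue points lower and grey points were not called; complex II is the only complex with all of its subunits below 0, and Atp5g3 at -0.78 and Atp5d at 0.54 are the ends of the range.

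Many nuclear genes of this pathway share short promoter motifs, and those found upstream of the start in called members are shown here because the members that moved did so in both directions. RefSeq promoters of GRCm38.p6, from 250 bases before to 50 bases after the start, matched 71 of the 85 genes by symbol and gave 77 promoters of 300 bases. The motif GCGCANGCG, of the nuclear respiratory factor 1 type, was found on either strand in 24.7% of them, against 6.25% of all 32851 promoters. The ETS type motif CCGGAAG was in 26% against 8.86%, and the YY1 type motif AAGATGGCG was in 13% against 1.40%. A promoter was counted once for a motif, also where GCGCANGCG matched both strands at the same site. At least 1 of these motifs lay in 39 of the 71 genes. Of the 18 genes with GCGCANGCG, 3 were called higher, 3 were called lower and 12 were not called. Of the 20 genes with CCGGAAG, 3 were called higher, 1 was called lower and 16 were not called, and of the 9 with AAGATGGCG the numbers were 1, 2 and 6. A match describes the letters of the window and is not evidence of binding.

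The windows below hold a motif, in capitals, with up to 8 bases on each side, read 5′ to 3′ on the gene's own strand and ending at the transcription start where that came first. They come from called genes and lie upstream of the start, and all of these genes are on the minus strand. Capitals that spell the reverse complement mark the motif on the other strand. Sdha, called lower, held 3 copies, starting 98, 55 and 10 bases before the transcription start (chr13:74350322-74350346, chr13:74350279-74350303 and chr13:74350241-74350258). Ndufs6, also called lower, held 1 copy (chr13:73328483-73328505), while Ndufa8, called higher, held 2 (chr2:36049351-36049375 and chr2:36049339-36049355). Uqcr11, called higher, held an ETS type motif (chr10:80406873-80406895), and so did Sdhaf2, called higher (chr19:10525353-10525375).
Sdha, first copy: tttacaggGCGCAGGCGcaccacca
Sdha, second copy: ggcgtgttGCGCAGGCGcagaatct
Sdha, last copy: gactcggtGCGCAAGCGc
Ndufs6: ctgctgtgCGCCTGCGCcggcac
Ndufa8, first copy: gagcagtgCGCTTGCGCgtcgctgg
Ndufa8, second copy: gctggagaCGCATGCGC
Uqcr11: tctcctccCCGGAAGtagatgtc
Sdhaf2: ccgccctcCTTCCGGccccgccg

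Complex II was the only complex in which every measured subunit had a fold change below 0. Over its 4 subunits the median was -0.26 on the log2 scale, and Sdha and Sdhb fell by the limma test. Sdha, the flavoprotein that oxidizes succinate (uc007rfa.1, mm9 chr13:74459702-74487728), was measured at 5507, 4593, 5789 and 5707 normalized counts in bigenic mice 1 to 4 and at 8040, 7554, 7778 and 7188 in nontransgenic mice 1 to 4. All 4 bigenic mice lay below all 4 nontransgenic mice, and mouse 2 was the lowest of them. The means were 5399 ± 550 and 7640 ± 361 (SD, n = 4), a log2(fold change) of -0.51 with a standard error of 0.09 and an adjusted p-value of 0.00204 by limma. It stayed called in all 8 fits that left out a mouse, where its highest adjusted p-value was 0.00979, and without bigenic mouse 2 its log2(fold change) was -0.43. Sdhb, the iron-sulfur subunit that carries the electrons onward, stood at 2345, 2072, 2548 and 2501 in bigenic and at 3064, 2778, 2799 and 2684 in nontransgenic mice. These groups did not overlap either. This gave a log2(fold change) of -0.26 (SE 0.09, adjusted p-value 0.0381 by limma), but the call held in only 4 of the 8 fits that left out a mouse, with an adjusted p-value of up to 0.109.

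The membrane anchors of complex II were not called with all 8 mice. Sdhc stood at 930, 1193, 783 and 723 normalized counts in bigenic and at 984, 1133, 1179 and 985 in nontransgenic mice. Bigenic mouse 2 had the highest value of all 8 mice and the other 3 bigenic mice the lowest. The log2(fold change) was -0.26 (adjusted p-value 0.195 by limma) with all mice and -0.40 (adjusted p-value 0.00785) without bigenic mouse 2. Sdhd, at -0.06, was not called in either fit. The assembly factors of the complex had fold changes on the other side of 0. Sdhaf2, needed to attach the flavin cofactor to Sdha, stood at 1205, 1046, 1214 and 1312 in bigenic and at 1051, 986, 1035 and 861 in nontransgenic mice, where the lowest bigenic value, from mouse 2, lay just under the highest nontransgenic one. Its log2(fold change) was 0.28 (adjusted p-value 0.0454 by limma), and it was called in only 1 of the 8 fits that left out a mouse, the one without bigenic mouse 2. Sdhaf1, which helps to deliver iron-sulfur clusters to Sdhb, also had a log2(fold change) of 0.28 and was not called (adjusted p-value 0.155), and its exons overlap those of E130208F15Rik on the opposite strand.

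Complex I had calls in both directions among its 33 measured subunits, with 2 higher and 5 lower and a median of -0.06 on the log2 scale. Among the 7 core subunits, which carry out electron transfer, Ndufs8 rose and Ndufs1 fell. Ndufs8, an iron-sulfur subunit (uc008fxn.1, mm9 chr19:3908870-3912717), stood at 1270, 1226, 1138 and 1108 normalized counts in bigenic and at 827, 907, 941 and 904 in nontransgenic mice. The groups were well apart, and mouse 2 lay within the range of the other bigenic mice. This gave a log2(fold change) of 0.40 (SE 0.08, adjusted p-value 0.0035 by limma), and the gene was called in all 8 fits that left out a mouse. Ndufs1, the largest iron-sulfur subunit, stood at 3073, 2839, 3063 and 2878 in bigenic and at 3758, 3307, 3490 and 3281 in nontransgenic mice, without overlap but with a smaller gap. Its log2(fold change) was -0.22 (SE 0.07, adjusted p-value 0.0383), it was called in 3 of the 8 fits that left out a mouse, and with the trend on GC content and length removed from each mouse its adjusted p-value was 0.0832. Ndufs7, which holds the iron-sulfur cluster next to ubiquinone, was not called with all mice (0.20, adjusted p-value 0.202) and was called higher without bigenic mouse 2 (0.32, adjusted p-value 0.00145) and with limma's array weights.

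Of the 26 accessory subunits of complex I, which surround the core and are needed for assembly and stability, 1 was called higher and 4 were called lower. Ndufs6, an accessory subunit that binds zinc, stood at 317, 285, 257 and 253 normalized counts in bigenic and at 355, 401, 424 and 369 in nontransgenic mice, a log2(fold change) of -0.48 (SE 0.11, adjusted p-value 0.00722 by limma). Ndufc2, a subunit of the membrane arm, stood at 905, 800, 1167 and 1085 in bigenic and at 1299, 1347, 1571 and 1316 in nontransgenic mice, a log2(fold change) of -0.49 (adjusted p-value 0.0125). Neither gene overlapped between the groups, and both were called in all 8 fits that left out a mouse. Ndufb3, also of the membrane arm, stood at 695, 728, 873 and 807 in bigenic and at 1037, 924, 1005 and 1160 in nontransgenic mice. It too showed no overlap, with a log2(fold change) of -0.41 (adjusted p-value 0.0108), and it was called in all 8 fits that left out a mouse, but not with the GC and length trend removed (-0.27, adjusted p-value 0.0909). Ndufc1 was uneven within the bigenic group, at 784 and 809 in mice 1 and 2 and at 535 and 499 in mice 3 and 4, against 841, 877, 968 and 1010 in the nontransgenic mice. Mice 1 and 2 thus lay just under the lowest nontransgenic value, and the call (-0.52, adjusted p-value 0.0304) held in 2 of the 8 fits that left out a mouse and was lost with the GC and length trend removed (adjusted p-value 0.114).

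The size of the rise in the 1 accessory subunit called higher depended on 1 mouse. Ndufa8, a subunit on the intermembrane side whose promoter windows are shown above, stood at 1517, 2686, 1610 and 1583 normalized counts in bigenic and at 1133, 1275, 1327 and 1256 in nontransgenic mice. Mouse 2 was far above the other 3 bigenic mice, which still lay above every nontransgenic mouse. The log2(fold change) was 0.53 (adjusted p-value 0.0335 by limma) with all mice and 0.33 (adjusted p-value 0.00274) without bigenic mouse 2, while the call was lost without any 1 of the nontransgenic mice (adjusted p-value of up to 0.0926). The accessory subunits Ndufa2, Ndufa5 and Ndufs4 were not called with all mice and were called lower without bigenic mouse 2, at -0.44, -0.26 and -0.28, against -0.33, -0.20 and -0.17. With all mice they were also called with limma's array weights, and Ndufa2, which has an adjusted p-value of 0.0503, under each of the 3 other scalings tried and with the filter in every mouse. None of the 4 Ndufaf assembly factors was called with all mice by limma, and 1 of them, Ndufaf4, had an unadjusted p-value below 0.05. Its log2(fold change) was 0.25 (adjusted p-value 0.0606), and it was called without bigenic mouse 2 (0.31, adjusted p-value 0.00765) and with the GC and length trend removed (0.38, adjusted p-value 0.00308). Ndufaf3 had a log2(fold change) of -0.22 and was not called.

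Complex III divided as well, with 2 of 9 subunits called higher and 1 lower and a median of -0.07 on the log2 scale. Uqcrc1, a core protein of the complex, stood at 4511, 5820, 4785 and 4887 normalized counts in bigenic and at 3866, 3723, 3843 and 4031 in nontransgenic mice. Every bigenic value was above every nontransgenic one, and mouse 2 was again the farthest. Its log2(fold change) was 0.37 (SE 0.09, adjusted p-value 0.00962 by limma), and 0.29 without bigenic mouse 2. Uqcrfs1, the Rieske iron-sulfur protein, went the other way, at 2189, 1553, 2621 and 2413 in bigenic and at 3211, 2982, 3235 and 2713 in nontransgenic mice. These did not overlap, and the log2(fold change) was -0.49 (adjusted p-value 0.028), called in 4 of the 8 fits that left out a mouse. Uqcr11, a small subunit with an ETS type motif in its promoter, stood at 1545, 2641, 1466 and 1559 in bigenic and at 1007, 1217, 1285 and 1356 in nontransgenic mice. The log2(fold change) was 0.53 (adjusted p-value 0.0444) with all mice and 0.33 (adjusted p-value 0.0153) without bigenic mouse 2, and the call held in 2 of the 8 fits that left out a mouse, with an adjusted p-value of up to 0.123. Cyc1, the cytochrome c1 subunit, was not called with all mice although its groups did not overlap (1277, 2275, 1398 and 1358 against 1186, 1201, 1185 and 957). It was called higher without bigenic mouse 2, at 0.25 with an adjusted p-value of 0.0363. Uqcr10, another small subunit, had the largest fall among the genes not called, at -0.64 (adjusted p-value 0.0571) with all mice and -0.40 (adjusted p-value 0.0469) without bigenic mouse 2. Cycs, the electron carrier cytochrome c, had a log2(fold change) of -0.21, or -0.08 without bigenic mouse 2, and was not called (adjusted p-value 0.312), and only 66.7% of the 50-base windows in its exons occur once in the genome.

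Complex IV had 2 of 12 subunits called lower and 0 called higher by limma, where 1 subunit had a positive fold change with an unadjusted p-value below 0.05, and its median log2(fold change) was -0.12. Both calls were accessory subunits around the catalytic core. Cox6c stood at 804, 697, 1116 and 984 normalized counts in bigenic and at 1321, 1410, 1592 and 1226 in nontransgenic mice. The groups did not overlap, and the log2(fold change) was -0.64 (SE 0.15, adjusted p-value 0.008). Cox5a stood at 1048, 873, 1329 and 1155 in bigenic and at 1665, 1694, 1755 and 1324 in nontransgenic mice, so that the groups overlapped only in bigenic mouse 3, which lay just above nontransgenic mouse 4. Its log2(fold change) was -0.56 (SE 0.14, adjusted p-value 0.0113), and both genes were called in all 8 fits that left out a mouse. Exons of Cox6c overlap Vps13b and those of Cox5a overlap Gm17596, each on the opposite strand.

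The other subunits of complex IV that come in isoforms were measured as 1 form each, apart from Cox7a2 and its relative Cox7a2l, and none was called with all mice. The log2(fold change) was 0.25 for Cox4i1 (adjusted p-value 0.0914 by limma), -0.31 for Cox6a1 (0.114), 0.11 for Cox6b1 (0.55), -0.30 for Cox7a2 (0.146), -0.08 for Cox7a2l (0.56), 0.03 for Cox8a (0.914) and -0.40 for Ndufa4 (0.0825), a subunit first counted with complex I and now placed in complex IV. Without bigenic mouse 2 the values came to 0.15 for Cox4i1, -0.17 for Cox6a1, -0.16 for Cox7a2, -0.02 for Cox7a2l, 0.09 for Cox8a and -0.22 for Ndufa4, and these 6 were again not called. Cox6b1, which joins the monomers of the complex, was called higher without bigenic mouse 2 (0.25, adjusted p-value 0.0201), since that mouse stood at 1297 and the other 3 bigenic mice stood higher, the nearest at 1859. Per kilobase of merged exon, Cox4i1 had the highest mean level of the 85 genes in nontransgenic mice, 11939 normalized counts per kilobase, and Cox15 the lowest, 85.3. Cox4i2, Cox6a2, Cox6b2, Cox7a1, Cox8b and Ndufa4l2 were not analysed here.

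The largest fall among the 11 members listed here as assembly factors was that of Cox17, the chaperone that hands copper to complex IV (uc007zet.1, mm9 chr16:38347077-38362383). It stood at 564, 554, 475 and 407 normalized counts in bigenic and at 726, 820, 849 and 918 in nontransgenic mice. The lowest nontransgenic mouse was well above the highest bigenic mouse, and mouse 2 lay within the range of its group. The means were 500 ± 73.7 and 828 ± 79.6 (SD, n = 4), a log2(fold change) of -0.73 (SE 0.12, adjusted p-value 0.00155 by limma), which is a fold of 0.60, and -0.79 without bigenic mouse 2. This was the smallest adjusted p-value of the 85 genes. Its exons overlap those of Popdc2 on the same strand, so reads from the shared stretch could be counted for either gene. The other 4 Cox assembly factors were not called with all mice. Cox10, which makes heme O on the way to heme A, had a log2(fold change) of 0.27 (adjusted p-value 0.128), or 0.15 without bigenic mouse 2, and Cox11, which also acts in copper delivery, had one of 0.28 (adjusted p-value 0.144), or 0.36 (adjusted p-value 0.0405) without bigenic mouse 2.

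ATP synthase held both ends of the range. Atp5g3, 1 of the genes for the ring of c subunits that turns in the membrane (uc008kdm.1, mm9 chr2:73746504-73749383), stood at 2598, 1626, 3156 and 2854 normalized counts in bigenic and at 4509, 4369, 4711 and 3609 in nontransgenic mice. No bigenic mouse reached the lowest nontransgenic mouse, and mouse 2 was by far the lowest. The means were 2558 ± 662 and 4300 ± 481 (SD, n = 4), a log2(fold change) of -0.78 (SE 0.19, adjusted p-value 0.00959 by limma), and -0.58 (adjusted p-value 0.000773) without bigenic mouse 2. Its paralogs Atp5g1 and Atp5g2 encode the same ring subunit and were not analysed here, so the level of the subunit as a whole is not known from these values. Atp5d, the delta subunit of the stalk that turns within F1 (uc007gby.2, mm9 chr10:79601377-79608563), stood at 2688, 3483, 2449 and 2592 in bigenic and at 1865, 1960, 1976 and 1854 in nontransgenic mice. Again the groups were apart, here with the bigenic mice above and mouse 2 the highest. The means were 2803 ± 464 and 1914 ± 63.1 (SD, n = 4), a log2(fold change) of 0.54 (SE 0.11, adjusted p-value 0.00421), and 0.43 without bigenic mouse 2. Exons of Atp5d overlap those of Dos on the opposite strand.

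Atp5j2, the f subunit of the membrane part of ATP synthase, was the other member of this complex called higher. It stood at 2063, 2492, 2053 and 2034 normalized counts in bigenic and at 1516, 1697, 1796 and 1485 in nontransgenic mice. Bigenic mice 1, 3 and 4 lay close together, mouse 2 stood above them, and all 4 were above every nontransgenic mouse. This gave a log2(fold change) of 0.41 (SE 0.10, adjusted p-value 0.00895 by limma), and 0.34 without bigenic mouse 2. The catalytic beta subunit Atp5b, among the most abundant of these transcripts at a mean of 19838 ± 440 normalized counts in nontransgenic and 21238 ± 1890 in bigenic mice (SD, n = 4), had a log2(fold change) of 0.09 (adjusted p-value 0.354), or 0.05 without bigenic mouse 2. Its partner Atp5a1 had one of -0.01 (adjusted p-value 0.95), or -0.14 (adjusted p-value 0.0706) without bigenic mouse 2. Over all 12 subunits of the synthase, 2 were called higher and 1 lower, and the median log2(fold change) was 0.09. Of the 3 genes kept apart, Cox4nb, Atp5s and Atp5sl, 0 were called by limma with all mice and 1 had an unadjusted p-value below 0.05. Atp5s had a log2(fold change) of 0.30 (adjusted p-value 0.0737 by limma). It was called higher without bigenic mouse 2 (0.36, adjusted p-value 0.0205) and with the GC and length trend removed (0.49, adjusted p-value 0.00275). Atp5sl had a log2(fold change) of 0.14 (adjusted p-value 0.171). Cox4nb, a gene of the endoplasmic reticulum membrane complex, had one of -0.18, or -0.07 without bigenic mouse 2.

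**Figure D2:**
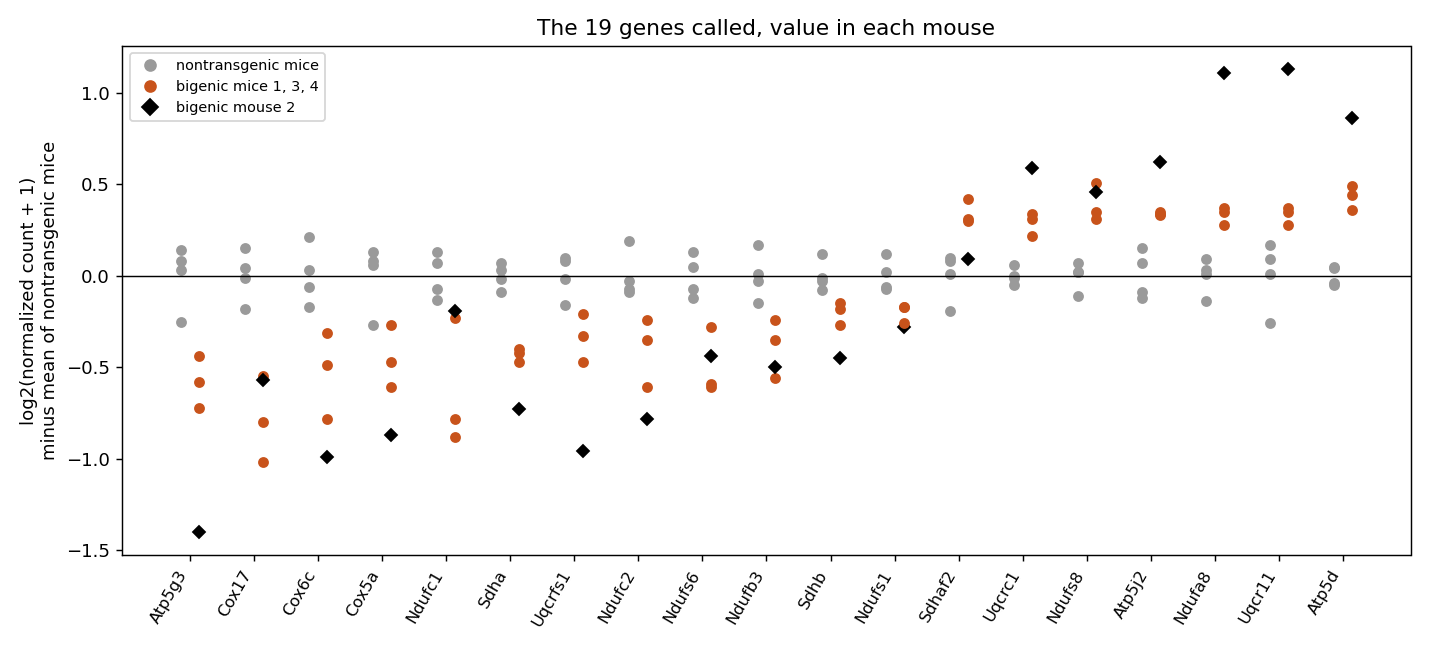
Log2(normalized count + 1) of the 19 called genes in each of the 8 mice, minus the mean of the nontransgenic mice, sorted by the fold change. Grey points are nontransgenic mice, orange points bigenic mice 1, 3 and 4, and black diamonds bigenic mouse 2, which lies at the far end of its group in Atp5g3 at -1.4, Ndufa8 at 1.11 and Uqcr11 at 1.13 but inside it in Cox17 at -0.57.

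Leaving out each mouse in turn moved the number of genes called but no direction among the 19. Over all genes tested the number called moved too. Without bigenic mouse 1, for example, it was 3539 against 3796 with all mice, and 15 of the 85 were called. In that fit calls were lost both over all genes and among the 85, and whether the shares lost differ was not tested. How many of all genes tested were called in all 8 of these fits was not counted, so no share stands beside the member count. Of the 19, a set of 12 was called in all 8, namely Atp5d, Atp5g3, Atp5j2, Cox17, Cox5a, Cox6c, Ndufb3, Ndufc2, Ndufs6, Ndufs8, Sdha and Uqcrc1. The other 7, which are Ndufa8, Ndufc1, Ndufs1, Sdhaf2, Sdhb, Uqcr11 and Uqcrfs1, were all lost when nontransgenic mouse 1, 2 or 3 was left out, which left 4 called higher and 8 called lower each time. Some of the 7 were also lost without bigenic mouse 1 (Sdhaf2, Sdhb, Uqcr11 and Uqcrfs1), bigenic mouse 3 (Ndufc1, Ndufs1 and Sdhaf2), bigenic mouse 4 (Ndufc1, Ndufs1, Sdhaf2 and Uqcr11) and nontransgenic mouse 4 (Ndufa8, Ndufc1, Sdhaf2 and Uqcr11), with 12 to 17 of the 85 called whenever a mouse other than bigenic mouse 2 was left out. Without bigenic mouse 2 the number rose to 31, with 14 higher and 17 lower, where 45.5% of all genes were called. All 19 were among the 31, and the 12 added were Atp5s, Cox11, Cox6b1, Cyc1, Ndufa2, Ndufa5, Ndufaf1, Ndufaf4, Ndufs4, Ndufs7, Sdhc and Uqcr10. In that fit complex II had 3 subunits called lower and 0 higher, and complex I had 8 lower and 3 higher.

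Bigenic mouse 2 differed from its group in most of these genes, and it stood apart over all genes tested too. On the log2 scale, the median distance of its values from the mean of the other 3 bigenic mice was 0.45 over the 85 genes. Over all genes tested it was 0.30. In the other bigenic mice this distance was 0.15 to 0.20 over the 85 genes and 0.13 to 0.14 over all genes tested. Mouse 2 lay outside the range of the other 3 in 76 of the 85 genes, above them in 30 and below them in 46. Bigenic mice 1, 3 and 4 lay outside the range of their group in 28, 34 and 32 genes, and nontransgenic mice 1 to 4 in 31, 21, 52 and 66. Mouse 2 was at least 1.5-fold from the mean of the other 3 in 23 genes, where the other bigenic mice were so in 0, 2 and 1 genes. Neither these counts nor those outside the range were made over all genes tested. The distances moved with base composition. Across the 85 genes, the difference of mouse 2 from its group had a Spearman rho of 0.39 and a Pearson r of 0.38 with the GC content of the exons, while for mice 1, 3 and 4 the Spearman rho was -0.38, -0.37 and -0.17. These are descriptions across genes that share a library, and the values of the other 3 mice are set against a mean that includes mouse 2. The rho of mouse 2 over all genes tested was 0.41. In nontransgenic mice 1 to 4 the rho was -0.27, 0.07, -0.04 and 0.11 across the 85 genes and -0.40, 0.01, 0.05 and 0.25 over all genes tested. The 30 genes higher in mouse 2 had a median GC content of 53.2% and the 46 lower ones 48%. The 7 genes called higher in the main comparison had one of 57.5% against 47.2% for the 12 called lower. The median was 50.1% over the 85 genes and 49.6% over all genes tested with an annotation. GC content by call was not summarized over all genes tested, so whether this split is particular to these genes is not known.

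**Figure D3:**
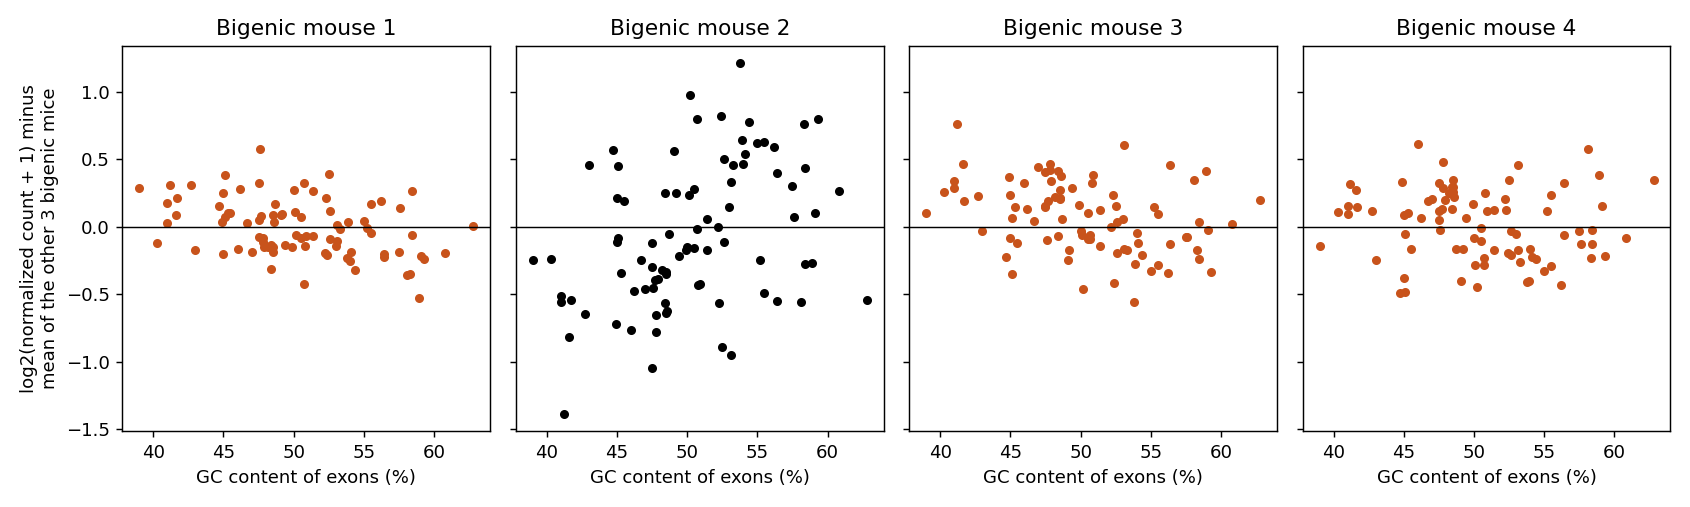
Each panel is 1 bigenic mouse and each point 1 of the 85 genes, with the GC content of its exons (%) on the horizontal axis and log2(normalized count + 1) minus the mean of the other 3 bigenic mice on the vertical axis. Points of mouse 2 spread the farthest and rise with GC content (Spearman rho 0.39), and those of mice 1, 3 and 4 spread less and fall with it (-0.38, -0.37 and -0.17).

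When a quadratic trend on GC content and exon length was removed from each mouse, 19 of the 85 genes were again called, 10 higher and 9 lower, where 38.9% of all genes with an annotation were called. Of the 19 called without this step 16 were shared, Ndufb3, Ndufc1 and Ndufs1 were lost, and Atp5s, Cox11 and Ndufaf4 were gained. Sdha (-0.46, adjusted p-value 0.00104 by limma), Cox17 (-0.68, adjusted p-value 0.00276) and Atp5g3 (-0.64, adjusted p-value 0.0036) stayed lower. Atp5d (0.45, adjusted p-value 0.00154) and Ndufs8 (0.35, adjusted p-value 0.00363) stayed higher.

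Other genes of the pathway were taken from lists written out by symbol. Among nuclear regulators and genes that copy or express mitochondrial DNA, calls went in the higher direction only. Of 23 listed, 16 were tested, and 7 were called higher, where 20.5% of all genes were, and 0 lower by limma (0 also had a negative fold change with an unadjusted p-value below 0.05), and the median log2(fold change) was 0.26. Peo1, which encodes the mitochondrial helicase Twinkle, stood at 926, 1028, 793 and 859 normalized counts in bigenic and at 482, 456, 474 and 564 in nontransgenic mice, and the groups were far apart. Its log2(fold change) was 0.86 (SE 0.10, adjusted p-value 0.000299), and 0.80 without bigenic mouse 2. Pprc1, a coactivator of the PGC-1 family, stood at 741, 846, 745 and 771 in bigenic and at 477, 479, 397 and 597 in nontransgenic mice, also without overlap, with a log2(fold change) of 0.68 (SE 0.12, adjusted p-value 0.00214). The other 5 called higher were Ppargc1b, Esrra, Polrmt, Yy1 and Lrpprc, at 1.09, 0.73, 0.59, 0.45 and 0.34, of which Ppargc1b, Esrra and Polrmt had their highest bigenic value in mouse 2 (825, 1735 and 726). Without that mouse all 7 were still called, with Ppargc1b at 0.87 and Esrra at 0.48. The best known coactivator and factors of the pathway were not called: Ppargc1a had a log2(fold change) of -0.13, Tfam one of 0.05, Nrf1 one of 0.02 and Gabpa one of -0.19, with Ppargc1a at -0.06 and Gabpa at -0.09 without bigenic mouse 2.

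The other list is of assembly factors that do not share the gene names of the complexes, and it also holds the inhibitor Atpif1 and the import gene Chchd4. Its genes were called in the lower direction only with all mice. Of 30 listed, 21 were tested, and 5 were called lower and 0 higher by limma, where 0 had a positive fold change with an unadjusted p-value below 0.05 and 15.4% of all genes were called lower. The median log2(fold change) of the 21 was 0.01, with 11 above and 10 below 0. Without bigenic mouse 2, 5 were called lower and 2 higher. Atpif1, the inhibitor of ATP hydrolysis by the synthase, stood at 3270, 2705, 3728 and 3566 normalized counts in bigenic and at 5848, 5162, 5964 and 5186 in nontransgenic mice. The gap between the groups was wide, and the log2(fold change) was -0.75 (SE 0.11, adjusted p-value 0.000779). Ttc19, which acts in complex III, stood at 2075, 1950, 2394 and 2155 in bigenic and at 2827, 2685, 2798 and 2620 in nontransgenic mice, with no overlap and a log2(fold change) of -0.35 (SE 0.08, adjusted p-value 0.00745). The others were Chchd4 of the intermembrane space import route (-0.69), Tmem70, which assists ATP synthase (-0.52, or -0.33 without bigenic mouse 2), and Higd2a, which assists complex IV (-0.91, or -0.56 without bigenic mouse 2, which stood at 89 normalized counts).

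**Figure D4:**
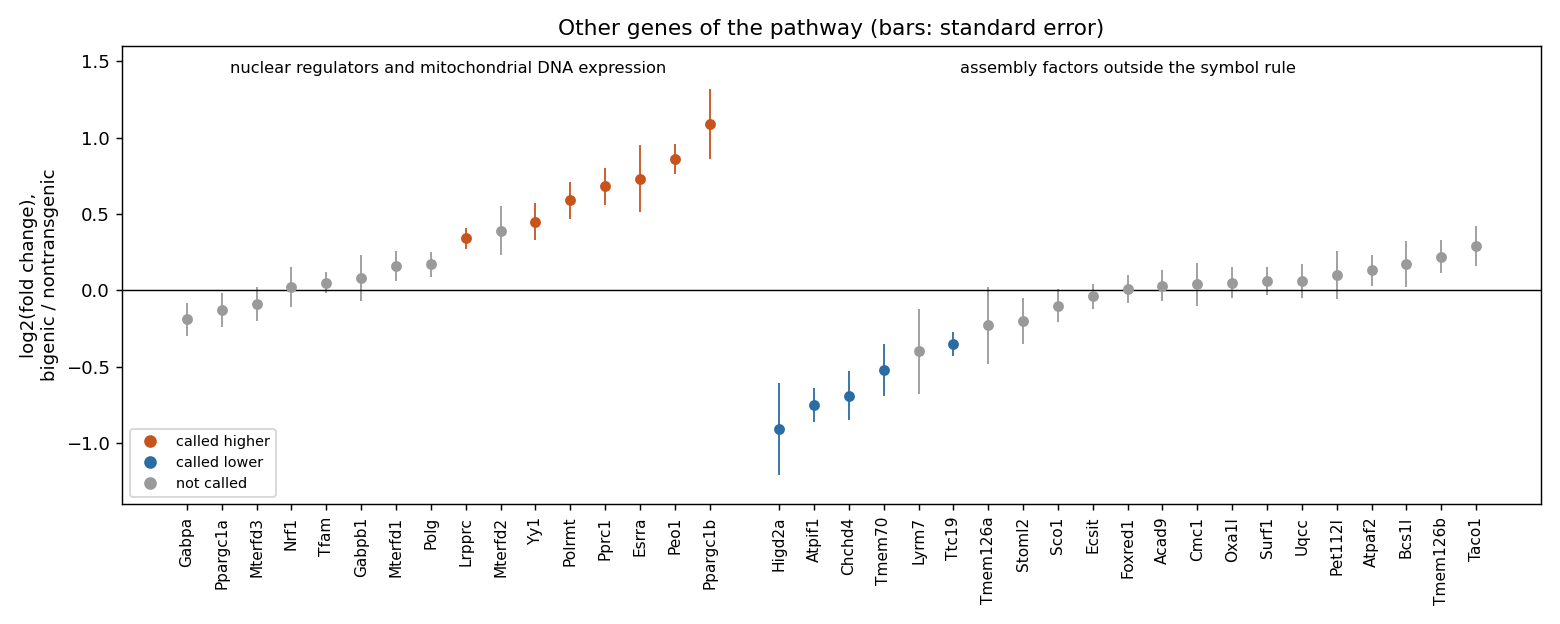
Log2(fold change), bigenic over nontransgenic, of 16 nuclear regulators and genes of mitochondrial DNA expression (left) and 21 genes listed as assembly factors outside the symbol rule (right), with standard errors as bars (4 mice a group). Orange points were called higher and blue points lower; the 7 calls on the left are all above 0, from Lrpprc at 0.34 to Ppargc1b at 1.09, and the 5 on the right are all below 0, from Higd2a at -0.91 to Ttc19 at -0.35.

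Reads that map to more than 1 place were dropped when the table was made, which touches genes with processed copies elsewhere in the genome. In 39 of the 85 genes every 50-base window of the exons occurs once in the mm9 genome. In 6 genes fewer than 80% do, at 37.8% for Cox5b, 42.5% for Cox7a2l, 66.7% for Cycs, 71.9% for Uqcrb, 74.1% for Cox7c and 79.6% for Cox8a, and none of the 6 was called. Exons of 22 of the genes overlap those of another gene, and the counting is not stated to have used strand.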

How the data were processed

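RNA-seq of cortex from 4 bigenic and 4 nontransgenic mice was analysed from the deposited table of 28662 transcripts. The authors trimmed adaptors with cutadapt, mapped 50-base reads to mm9 with Bowtie 0.12.7, kept uniquely mapping reads, counted exons with bedtools and summed them into genes. The deposited values are a signal per gene, namely counts scaled per mouse and rounded. How they were scaled is not given in the sources used here, and reads per mouse were estimated from the regular gaps this leaves among whole numbers. Columns name a group but no replicate. The deposited DESeq2 table holds the authors' own comparison (fold changes and p-values), and only its gene symbols were used.

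Genes with at least 10 RPM in at least 1 mouse were kept (10588). Values were taken as log2(value + 1), which understates the change of low genes, and compared with limma 3.58.1 (lmFit, eBayes with trend) in R 4.3.3, with Benjamini-Hochberg adjustment over all genes and a threshold of 0.05. The design had no covariate. The fit was tested on simulated data. Positions, exon overlaps, GC content and length came from GENCODE on mm9 (97.6% of genes tested, all 85 members), and promoters from RefSeq on GRCm38.p6. Python 3.11.15, numpy 2.4.6, pandas 2.3.3, scipy 1.17.1 and matplotlib 3.10.9 were used.

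The members and lists were chosen with earlier results of these data known, so no list was tested as a set. Genes were named by rule: the 2 lowest adjusted p-values in each role group, the 5 largest falls and rises among those called, every measured form of the isoform sets, and the 2 lowest in each list of other pathway genes. Other genes named were chosen after their values were seen. Alternatives were other pseudocounts, filters, scalings, array weights, stricter thresholds, removal of a GC and length trend, and leaving out each mouse.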

Additional observations from a re-analysis of the deposited data

Results flagged for a closer look

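In 4 genes the value of bigenic mouse 2 stood so far from the other 3 bigenic mice that the gap to the nearest of them, divided by the range of the group, exceeded Dixon's 95% critical value for 4 samples. The check covered 37 named genes in 2 groups each, 74 in all, and chance alone flags about 1 group in 20. All 4 values came from the same mouse, and the genes share its library. Atp5j2 stood at 2492 normalized counts in that mouse and at 2063 in the nearest (ratio 0.937). Ndufa8 stood at 2686 against 1610 (0.920), and Uqcr11 at 2641 against 1559 (0.921). Cox6b1 was the exception in direction, at 1297 against 1859 (0.835). The part of depth or base composition in these values was not tested.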

How the results depend on the processing

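For the 19 genes called among the 85, no alternative changed a direction, and pseudocounts of 10 and 0.1 gave the same 7 and 12 calls. The numbers of members called higher and members called lower moved with limma's array weights (20 and 23), with an adjusted p-value below 0.01 (4 and 5) and with a change of at least 1.5-fold (0 and 3, the 3 being Atp5g3, Cox17 and Cox6c). Of genes called, bigenic against nontransgenic, these settings left 6455, 2057 and 1314. Of the nuclear regulators and mitochondrial DNA expression called higher, array weights gave 11. Of the assembly factors outside the symbol rule called higher, array weights gave 3 and removal of the GC and length trend gave 1, and of the assembly factors outside the symbol rule called lower, both stricter thresholds gave 3. Removal of that trend moved the median log2 fold change, complex I core subunits, to 0.02. Leaving out each mouse gave 4 to 14 members called higher, 8 to 17 members called lower, 0 to 2 assembly factors outside the symbol rule called higher and 3 to 5 called lower. Among the 37 genes named by rule, reversals came only in genes near 0. These were log2 fold change of Cox8a to -0.01 with median-of-ratios size factors, -0.03 with quantile normalization and -0.03 with the GC and length trend removed. In some of the fits without 1 mouse it came to -0.08 to -0.01. In the others it stayed above 0, at 0.09 without bigenic mouse 2 and up to 0.16 without bigenic mouse 1. With array weights, log2 fold change of Atp5b came to -0.0049 and log2 fold change of Cox7a2l to 0.04. Members outside the named genes were not part of this check. Some of them also changed sign without bigenic mouse 2, such as Ndufa1 (-0.06 to 0.21) and Atp5h (-0.18 to 0.02), neither of them called. The cause was not tested. No paired analysis was possible because the columns carry no replicate number from the labels. The number of mice limits what could be called, and 3 reads in the shallowest library correspond to 6.20 normalized counts, far below every member.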
